A study of Mus musculus with 4 samples.

Results

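Expression of 10 enzyme genes of leukotriene and prostaglandin metabolism was examined in *in vitro* MDSCs (myeloid-derived suppressor cells, immature myeloid cells that restrain T cells) grown with or without G-CSF. The genes were chosen by symbol, for their known place in the pathway, from the 24346 genes of each library: *Alox5*, *Alox5ap*, *Alox15*, *Lta4h*, *Ltc4s*, *Ptgs1*, *Ptgs2*, *Ptges*, *Hpgd* and *Hpgds*. Each of the 4 libraries was made from BM cells of C57BL/6J mice, females of 6 to 8 weeks, that had been kept for 4 days in 40 ng/ml GM-CSF. The 2 libraries of the G-CSF group came from cultures that also received 5 ng/ml G-CSF, and the 2 Control libraries from cultures that did not. Whole cultures rather than a sorted cell type were read. The study calls the replicates biological, but neither it nor the labels say whether they were separate mice or separate cultures, so the p-values measure the spread between these samples.

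Arachidonic acid is cut from membrane lipids by phospholipases and then enters competing routes. 5-lipoxygenase (*Alox5*), helped by its membrane partner FLAP (*Alox5ap*), makes leukotriene A4, which LTA4 hydrolase (*Lta4h*) turns into the neutrophil attractant leukotriene B4 and leukotriene C4 synthase (*Ltc4s*) turns into the cysteinyl leukotrienes. The cyclooxygenases (*Ptgs1*, *Ptgs2*) make prostaglandin H2, from which terminal synthases such as *Ptges* and *Hpgds* make prostaglandins E2 and D2, and 15-hydroxyprostaglandin dehydrogenase (*Hpgd*) inactivates them. Neutrophils, monocytes and macrophages are rich in the 5-lipoxygenase route, mast cells make prostaglandin D2 and leukotriene C4, and prostaglandin E2 is a known mediator of T cell suppression by MDSCs.

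Estimated depth was 12450000 to 15700000 reads per library, and 14674 to 14890 genes stood above 0. Values are FPKM, reads scaled to transcript length and library size, so levels can be compared between genes. Summed neutrophil markers were at 5147.8 FPKM or above and summed monocyte markers at 1176.9 FPKM or above in every library, although the monocyte marker *Ms4a4c* was at 0.886 FPKM or below. The extraction text of the labels speaks of liver, but all 5 hepatocyte markers examined (*Alb*, *Apoa1*, *Ttr*, *Fgb*, *Cyp3a11*) were listed at 0 in every library.

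The levels of the 10 genes spanned a wide range in Control. In order of mean FPKM they were *Alox5ap*, *Lta4h*, *Alox5*, *Ptgs1*, *Ltc4s*, *Hpgds*, *Ptges*, *Alox15*, *Ptgs2* and *Hpgd*, and no neighbours in this order overlapped over the 2 Control libraries. The order was the same with G-CSF, where only *Alox15* and *Ptgs2* overlapped. The 4 genes of the 5-lipoxygenase route (*Alox5*, *Alox5ap*, *Lta4h*, *Ltc4s*) together held 91.8% of the summed FPKM of the 10 genes in each Control library, against 91.9% and 92.2% with G-CSF. Their sum was 931.9 and 928.8 FPKM in Control and 838.4 and 852.9 FPKM with G-CSF. The 4 genes of the prostaglandin route (*Ptgs1*, *Ptgs2*, *Ptges*, *Hpgds*) summed to 80.94 and 80.55 FPKM in Control and to 72.42 and 71.38 FPKM with G-CSF. *Ptgs1* made up most of this sum and *Alox5ap* most of the other. The sums do not cover whole routes. They leave out the prostanoid synthases *Ptges3* and *Tbxas1* (means of 93.6 and 56.4 FPKM in Control) and *Mgst2* (84.4 FPKM), which can make leukotriene C4. *Hpgd*, the breakdown enzyme, was close to absent, at an estimated 2 reads or fewer in each library.

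**Figure D1:**
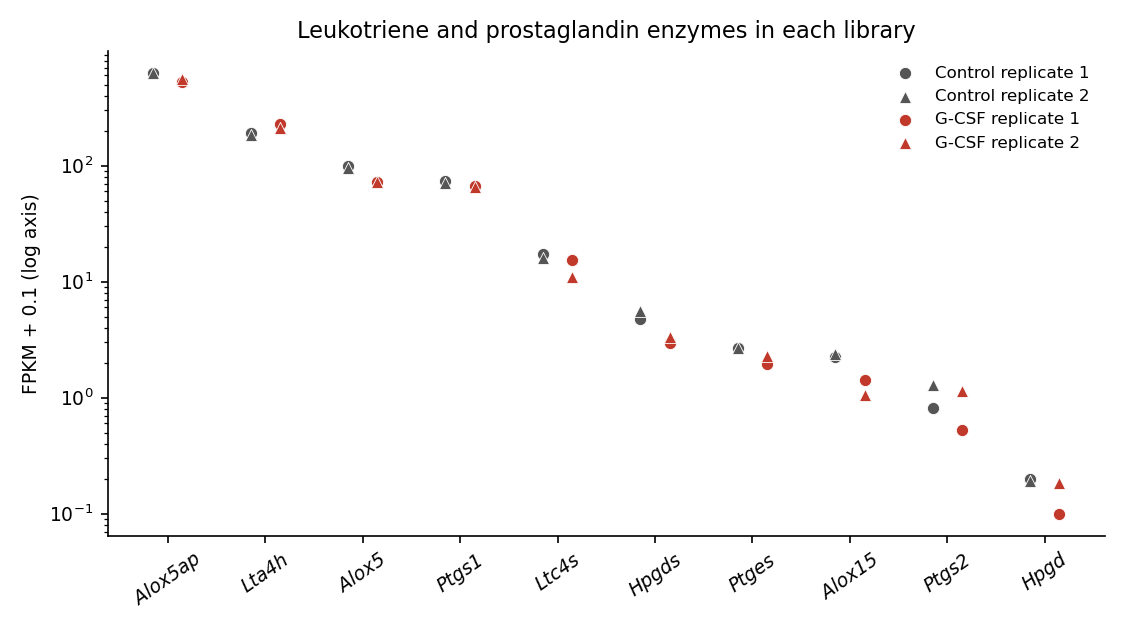
Level of each of the 10 enzyme genes (FPKM) in the 2 Control and the 2 G-CSF libraries, plotted as FPKM + 0.1 on a log axis with 1 point per library (circles, replicate 1; triangles, replicate 2). Values are lower in both G-CSF libraries than in both Control libraries for *Alox5*, *Alox5ap*, *Alox15* and *Hpgds* among others and higher for *Lta4h*, while *Ptgs2* overlaps and *Hpgd* lies near 0.

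Of the 10 genes, 9 had enough reads to be tested (limma on log2(FPKM + 0.1), adjusted over 12056 genes). An adjusted p under 0.05 was reached by 5 of them, or 55.6%, against 23.7% of all genes tested. *Alox5*, *Alox5ap*, *Alox15* and *Hpgds* fell (11.3% of all genes passed in this direction) and *Lta4h* rose (12.4%). The groups did not overlap for 8 of the 9 genes, against 65.9% of all genes. The median log2 fold change was -0.35 over the 9 genes and 0.001 over all genes. None of the 9 was past a fold of 2 with an adjusted p under 0.05, as 1.40% of all genes were, and the same held at an unadjusted p and with limma voom (0 of 9 in each). The count of 5 was 2 with no filter on low values (*Alox5* and *Hpgds*). With a library left out, the set of genes that passed changed. Only *Alox5* and *Hpgds* stayed in it each time, and *Ltc4s*, outside it in the main fit, entered it without G-CSF replicate 1. Because whole cultures were measured, fewer cells of a type and less RNA per cell cannot be told apart.

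**Figure D2:**
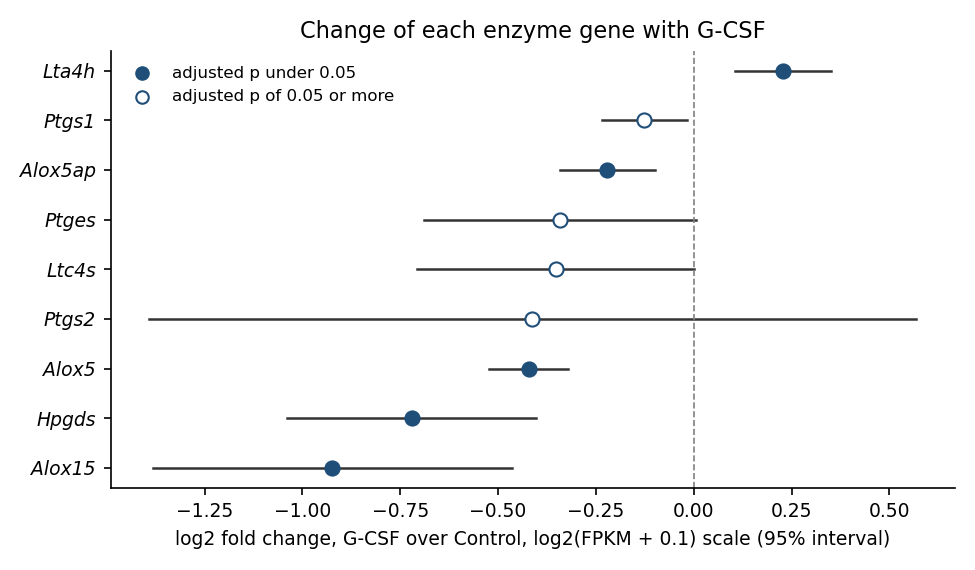
Log2 fold change of G-CSF over Control (log2(FPKM + 0.1) scale) for the 9 enzyme genes tested, with 95% intervals from limma. Filled points mark an adjusted p under 0.05. *Alox15*, *Hpgds*, *Alox5* and *Alox5ap* lie below 0 and *Lta4h* lies above it.

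Before the values of single genes, the promoters of 3 of the genes that changed are shown, since *Alox5* and *Hpgds* fell and *Lta4h* rose. Each window is the 250 bases before the RefSeq start of the gene in GRCm38.p6, read 5′ to 3′ on the gene's strand, and lies at chr6:116461179-116461428 (minus strand) for *Alox5*, at chr6:65144731-65144980 (minus strand) for *Hpgds* and at chr10:93453146-93453395 (plus strand) for *Lta4h*. Capitals mark the matches to the motifs searched.
Alox5: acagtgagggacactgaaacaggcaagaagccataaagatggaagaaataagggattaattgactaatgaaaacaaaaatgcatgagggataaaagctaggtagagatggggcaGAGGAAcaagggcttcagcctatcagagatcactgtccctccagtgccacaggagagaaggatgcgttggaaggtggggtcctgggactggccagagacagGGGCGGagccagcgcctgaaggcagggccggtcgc
Hpgds: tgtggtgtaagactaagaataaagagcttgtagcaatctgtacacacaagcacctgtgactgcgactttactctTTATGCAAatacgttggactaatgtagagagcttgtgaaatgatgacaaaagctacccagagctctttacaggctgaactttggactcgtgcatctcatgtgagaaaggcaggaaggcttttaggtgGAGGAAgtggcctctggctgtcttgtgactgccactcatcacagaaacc
Lta4h: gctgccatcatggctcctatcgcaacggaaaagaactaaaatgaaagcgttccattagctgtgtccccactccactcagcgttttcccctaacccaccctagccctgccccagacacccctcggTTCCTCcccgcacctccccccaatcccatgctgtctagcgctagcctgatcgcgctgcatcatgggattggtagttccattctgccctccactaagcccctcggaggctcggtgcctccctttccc

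RefSeq windows were matched for 8 of the 10 genes. Those of *Hpgds*, *Ltc4s* and *Ptges* overlap the spans given below for these genes, which come from GENCODE. The 2 annotations thus differ there, and bases before the RefSeq start can lie inside the GENCODE gene. The window of *Hpgd* is counted, although its start was not found among the transcripts. 5 motifs were searched on both strands, the GC box GGGCGG, the TATA box TATAAA, the C/EBP core TTGCNNAA, the STAT motif TTCNNNGAA and the PU.1 core GAGGAA. The PU.1 core, letters bound by a factor of myeloid cells, occurred in 7 of the 8 windows, *Ltc4s* being without it. It occurred in 23.3% of all 32851 windows, a larger set than the 24346 genes of each library. The GC box occurred in 4 of 8, against 32.7% of all windows, and the C/EBP core in 2 of 8 (*Hpgds* and *Ptgs2*), against 9.56%. The TATA box was in 0 of 8, against 12.4%, and the STAT motif in 0 of 8, against 7.02%. The fallen *Alox5* and *Hpgds* and the risen *Lta4h* all held the PU.1 core, starting 136, 49 and 126 bases before the start, and only *Hpgds* among the 3 held the C/EBP core. These are matches of letters and not measured binding.

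*Alox5* (chr6:116410077-116461178, 14 exons) stood at 98.5 and 96.1 FPKM in Control and at 72.7 and 72.5 FPKM with G-CSF. Both G-CSF libraries lay below both Control libraries, and the replicates of each group were close. It fell by 25.4% (log2 fold change -0.42, SE 0.0423, adjusted p = 0.00361), and it kept an adjusted p under 0.05 whichever library was left out. Its partner *Alox5ap* (chr5:149264767-149288153, 5 exons), without which 5-lipoxygenase makes little leukotriene in intact cells, was the highest of the 10 genes. *Alox5ap* stood at 626 and 632 FPKM in Control and at 522 and 558 FPKM with G-CSF, and the groups did not overlap. It fell by 14.2% (log2 fold change -0.22, SE 0.0505, adjusted p = 0.0258). That call ended without Control replicate 1, Control replicate 2 or G-CSF replicate 1 (adjusted p = 0.0731, 0.0758 and 0.123) and with no filter on low values (0.0649). An antisense gene, Gm19719, overlaps *Alox5ap*, and although the library kit was stranded, whether the counting used strand is not given in the sources used here.

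*Lta4h* (chr10:93453411-93484875, 19 exons), the hydrolase that makes leukotriene B4, was the member that rose. It stood at 189.9 and 185 FPKM in Control and at 228 and 212 FPKM with G-CSF, with both G-CSF libraries above both Control libraries. The rise was 17.2% (log2 fold change 0.23, SE 0.051, adjusted p = 0.0241). That call ended without Control replicate 1, Control replicate 2 or G-CSF replicate 1 (adjusted p = 0.0573, 0.079 and 0.0955) and with no filter (0.0592). Since *Alox5* fell and *Lta4h* rose, the ratio of *Lta4h* to *Alox5* was 1.93 in each Control library, against 3.14 and 2.92 with G-CSF. The ratio of *Alox5ap* to *Alox5* was 6.36 and 6.57 in Control, against 7.19 and 7.7 with G-CSF. Such ratios within a library do not depend on its scaling, and they are given as values without a test.

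*Ltc4s* (chr11:50236461-50238616, 5 exons), which joins glutathione to leukotriene A4, stood at 17.1 and 16 FPKM in Control and at 15.2 and 10.9 FPKM with G-CSF. The groups did not overlap, but the G-CSF libraries differed from each other by more than they differed from Control replicate 2 at their nearest. The log2 fold change was -0.35 (95% interval -0.707 to 0.002, adjusted p = 0.131). Without G-CSF replicate 1 it was -0.59 (adjusted p = 0.0157), and without G-CSF replicate 2 it was -0.12 (adjusted p = 0.414), so G-CSF replicate 2 carried most of the difference. The ratio of *Lta4h* to *Ltc4s* was 11.1 and 11.6 in Control, against 15 and 19.3 with G-CSF. This ratio leaves out *Mgst2*, which can also make leukotriene C4. *Mgst2* stood at 87.3 and 81.4 FPKM in Control and rose to 101 and 99.9 FPKM with G-CSF, so the ratio does not compare whole arms. *Ltc4s* rested on 87 to 116 estimated reads per library, and an antisense gene, Gm26542, overlaps it.

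**Figure D3:**
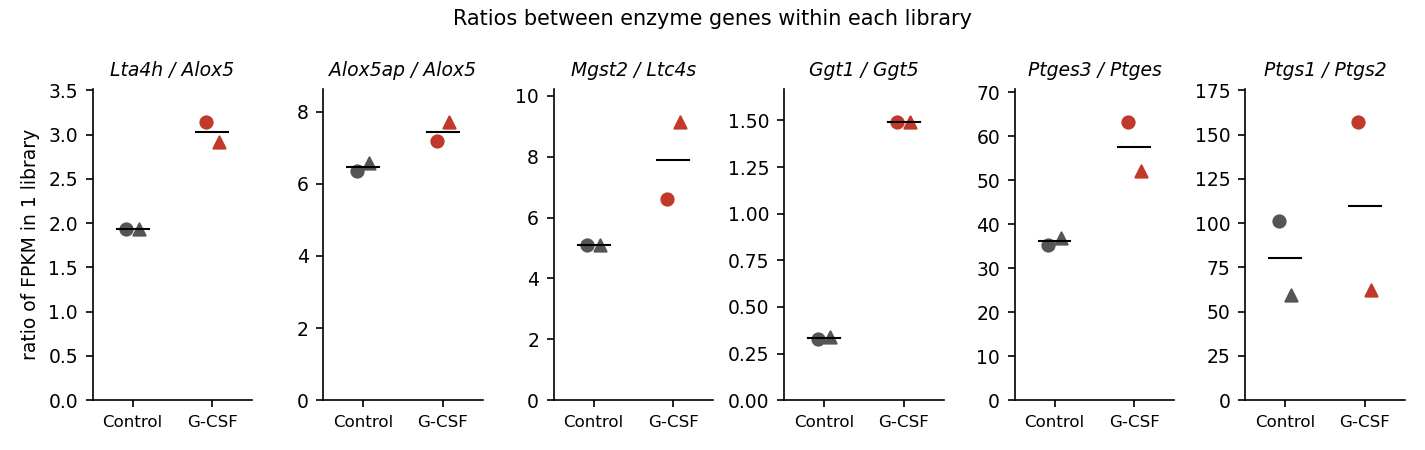
Ratio of FPKM of 2 enzyme genes within each library, 1 panel per pair, with 1 point per library (circles, replicate 1; triangles, replicate 2) and a line at the group mean. *Lta4h* to *Alox5* is 1.93 in both Control libraries, against 2.92 and 3.14 with G-CSF, and *Ptgs1* to *Ptgs2* overlaps between the groups.

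*Alox15* (chr11:70344152-70352031, 14 exons), the leukocyte 12/15-lipoxygenase, stood at 2.16 and 2.27 FPKM in Control and at 1.31 and 0.957 FPKM with G-CSF. These values came from an estimated 64 and 71 reads, against 36 and 33 after G-CSF, and the groups did not overlap. It fell by 47.3% (log2 fold change -0.92, SE 0.191, adjusted p = 0.0194). The call ended without Control replicate 1, Control replicate 2 or G-CSF replicate 2 (adjusted p = 0.0535, 0.0605 and 0.0564) and with no filter (0.0619), and the log2 fold change was -0.60 at a pseudocount of 1 FPKM. *Alox5* stood 45.5 and 42.4 times above *Alox15* in Control, against 55.5 and 75.7 times with G-CSF.

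The constitutive cyclooxygenase *Ptgs1* (chr2:36230426-36252272, 11 exons) stood at 72.9 and 71.2 FPKM in Control and at 67.2 and 64.9 FPKM with G-CSF. The groups did not overlap, and the difference was small (log2 fold change -0.13, 95% interval -0.235 to -0.016, adjusted p = 0.0911). The inducible cyclooxygenase *Ptgs2* (chr1:150100031-150108227, 10 exons) was far lower, at 0.72 and 1.2 FPKM in Control and at 0.428 and 1.04 FPKM with G-CSF. Its groups overlapped, and in each group replicate 2 was the higher library. The log2 fold change of *Ptgs2* was -0.41 (95% interval -1.392 to 0.569, adjusted p = 0.499), and its sign depended on a library, being 0.14 without G-CSF replicate 1 and -0.97 without G-CSF replicate 2. *Ptgs2* rested on 23 to 72 estimated reads per library, and its interval holds changes in either direction. *Ptgs1* stood 101 and 59.4 times above *Ptgs2* in Control, against 157 and 62.4 times with G-CSF, ranges that overlap.

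Among the terminal synthases, *Hpgds* (chr6:65117293-65144908, 6 exons), which makes prostaglandin D2, stood at 4.68 and 5.54 FPKM in Control and at 2.88 and 3.23 FPKM with G-CSF. Both G-CSF libraries lay below both Control libraries. It fell by 39.3% (log2 fold change -0.72, SE 0.132, adjusted p = 0.0141), and the adjusted p stayed between 0.0215 and 0.0495 whichever library was left out. *Ptges* (chr2:30889471-30929863, 3 exons), the inducible prostaglandin E2 synthase, stood at 2.6 and 2.58 FPKM in Control and at 1.87 and 2.2 FPKM with G-CSF. The groups did not overlap, and the log2 fold change of -0.34 did not pass (95% interval -0.689 to 0.006, adjusted p = 0.135). *Hpgd* (chr8:56294585-56321043, 7 exons) was listed at 0.099 and 0.093 FPKM in Control and at 0 and 0.085 FPKM with G-CSF, an estimated 2, 2, 0 and 2 reads, so no fold was computed. The ratio of *Hpgds* to *Ptgs1* was 0.0642 and 0.0778 in Control, against 0.0429 and 0.0498 with G-CSF. Annotated genes on the opposite strand overlap *Hpgds* (Gm17147, a processed pseudogene) and *Ptgs1* (Gm43621), so the strand limit given for *Alox5ap* holds for both.

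Markers of cells that use these enzymes also differed between the groups. Of the mast cell and basophil markers, 6 of 8 tested fell and 0 rose (median log2 fold change -0.63). Of all genes tested, 11.3% fell at an adjusted p under 0.05. The summed level of the mast cell and basophil markers was 164.5 and 175.8 FPKM in Control and 99.2 and 112.4 FPKM with G-CSF. *Mcpt8*, a basophil protease, stood at 57.4 and 56.8 FPKM in Control and at 34.9 and 39.8 FPKM with G-CSF (log2 fold change -0.61, adjusted p = 0.00469). The mast cell proteases *Tpsb2* and *Cma1* were listed at 0 in every library but Control replicate 2. The ratio of *Hpgds* to *Mcpt8* was 0.0815 and 0.0975 in Control, against 0.0826 and 0.0811 with G-CSF, and its groups overlapped, and so did the ratio to *Prss34*, another basophil protease (0.106 and 0.117 in Control, 0.107 and 0.102 with G-CSF). The ratio of *Hpgds* to *Cpa3*, the mast cell carboxypeptidase, was 0.278 and 0.322 in Control, against 0.225 and 0.269 with G-CSF, without overlap.

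Of the eosinophil markers, 3 of 4 tested fell, against 11.3% of all genes tested. The summed level of the eosinophil markers was 437.8 and 479.3 FPKM in Control and 250.4 and 204.7 FPKM with G-CSF. *Prg2*, the major basic protein of eosinophils, stood at 223 and 292 FPKM in Control and at 177 and 136 FPKM with G-CSF (log2 fold change -0.715, adjusted p = 0.0227). With no filter on low values the calls of *Prg2* (adjusted p = 0.0744) and of the eosinophil peroxidase *Epx* (0.0595) ended. *Siglecf*, an eosinophil surface lectin, stood at 3.15 to 3.45 FPKM in the 4 libraries (log2 fold change 0.04, adjusted p = 0.847), and the receptors *Ccr3* and *Il5ra* were at 0.253 FPKM or below. The ratio of *Alox15* to *Prg2* was 0.00972 and 0.00777 in Control, against 0.0074 and 0.00703 with G-CSF. The part of these cell types in the falls of *Hpgds* and *Alox15* was not tested.

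Of the other marker lists, 5 of 7 macrophage markers fell (71.4% passing, against 23.7% of all genes). Their median log2 fold change was -0.51, with sums of 348.7 and 379.2 FPKM in Control against 275.7 and 299.9 FPKM with G-CSF. So did 5 of 6 neutrophil markers (83.3%, median -0.93), with sums of 9335.6 and 8584.3 FPKM against 5147.8 and 5466.4 FPKM. Of the dendritic cell markers 3 of 6 fell (50.0%, sums of 642.2 and 532.1 FPKM against 351.4 and 271.7 FPKM). Of the megakaryocyte and platelet markers 1 of 6 fell (16.7%), and of the lymphocyte markers 1 of 2 tested (50.0%). Of 4 monocyte markers tested 1 rose (*F13a1*) and 0 fell (25.0% passing, median -0.008). By flow cytometry of such cultures, the study found the percentages of macrophages and dendritic cells unaffected by G-CSF. It found a larger share of monocytic MDSCs and a smaller share of polymorphonuclear MDSCs. Whether the sequenced cultures were among those stained is not stated. *Alox5* and *Alox5ap* are used by neutrophils and macrophages, whose marker sums fell, and the part of these cells in the falls of the 2 genes was not tested.

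**Figure D4:**
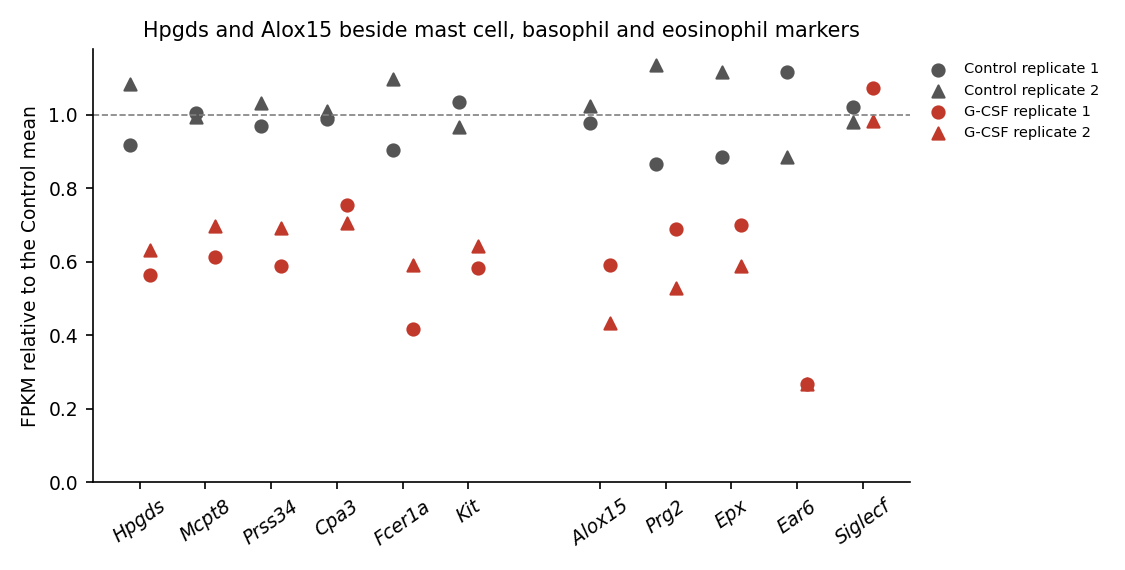
FPKM of *Hpgds* beside 5 mast cell and basophil markers and of *Alox15* beside 4 eosinophil markers, each divided by the gene's Control mean, with 1 point per library and a dashed line at the Control mean. Every gene shown except *Siglecf* is lower in both G-CSF libraries than in both Control libraries. Of all genes tested, 65.9% did not overlap between the groups. The mast cell and basophil markers *Ms4a2* and *Gata2*, not shown, did not pass with limma (adjusted p = 0.194 and 0.0578).

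Beyond the 10 enzymes, 77 further genes of the pathway were listed. Of these, 75 were among the deposited genes and 56 were tested, of which 14 fell and 4 rose (32.1% passing, against 23.7% of all genes), with a median log2 fold change of -0.18. With no filter on low values 11 passed, as did 1626 of the 16234 genes then tested. Genes listed at 0 in every library numbered 5, and 3 of them were receptors: *Ptgdr2*, a prostaglandin D2 receptor of T cells and eosinophils, *Oxgr1* and *Gpr17*.

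Of 18 genes of arachidonate release and reacylation tested, 3 fell and 0 rose (16.7% passing, against 23.7% of all genes), and the median was -0.04. *Anxa1*, annexin A1, which restrains phospholipase A2 and was the highest gene of the list, stood at 607 and 629 FPKM in Control and at 465 and 476 FPKM with G-CSF (log2 fold change -0.39, adjusted p = 0.00507). *Lpcat2*, a lysophospholipid acyltransferase that also makes platelet-activating factor, fell (log2 fold change -0.44, adjusted p = 0.00547), and so did *Mgll*, monoacylglycerol lipase (-0.415, adjusted p = 0.00539). *Pla2g4a*, the cytosolic phospholipase A2 that supplies both routes, stood at 19.2 and 21.8 FPKM in Control and at 23.4 and 23.9 FPKM with G-CSF (log2 fold change 0.21, adjusted p = 0.0849), and it passed with limma voom (0.23, adjusted p = 0.0496) and without Control replicate 2 (0.30, adjusted p = 0.0448), whereas without Control replicate 1 it was 0.12 (adjusted p = 0.344).

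Among the other lipoxygenase and leukotriene genes, 5 of 16 tested fell and 2 rose (43.8% passing, against 23.7% of all genes), with a median of -0.21. *Cyp4f18*, a cytochrome P450 that oxidises leukotriene B4 (log2 fold change -0.45, adjusted p = 0.00531), and *Cyp4f16* of the same family (-0.22, adjusted p = 0.0278) fell, and so did *Dpep2*, a dipeptidase that cuts leukotriene D4 (-0.435, adjusted p = 0.0184), the epoxide hydrolase *Ephx1* (-0.46, adjusted p = 0.0355) and *Cotl1*, a 5-lipoxygenase-binding protein and the highest gene of the list (-0.18, adjusted p = 0.0363). The genes that rose were *Mgst2*, which can make leukotriene C4 outside mast cells, and *Ggt1*, which cuts leukotriene C4 to D4. *Mgst2* stood at 87.3 and 81.4 FPKM in Control and at 101 and 99.9 FPKM with G-CSF (log2 fold change 0.25, adjusted p = 0.017). *Ggt1* stood at 1.17 and 1.29 FPKM in Control and at 4.48 and 5.01 FPKM with G-CSF (log2 fold change 1.87, adjusted p = 0.00179) and was the only gene of the 56 with both an adjusted p under 0.05 and a fold over 2. *Ggt5*, the other leukotriene-cleaving transpeptidase, stood at 3.57 and 3.77 FPKM in Control and at 3 and 3.35 FPKM with G-CSF (adjusted p = 0.269), so the ratio of *Ggt1* to *Ggt5* was 0.326 and 0.341 in Control and 1.49 in each G-CSF library. The ratio of *Mgst2* to *Ltc4s* was 5.11 and 5.1 in Control, against 6.62 and 9.13 with G-CSF.

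Of 11 prostanoid synthases and genes of transport and breakdown tested, 1 rose and 0 fell (9.09% passing, against 23.7% of all genes), with a median of -0.08. *Ptges3*, the cytosolic prostaglandin E2 synthase and HSP90 co-chaperone, was the highest of them and stood at 91.9 and 95.4 FPKM in Control and at 118 and 115 FPKM with G-CSF (log2 fold change 0.31, adjusted p = 0.00739). Pseudogenes share 18.5% of its transcript windows, so its level is uncertain. The ratio of *Ptges3* to *Ptges* was 35.3 and 37 in Control, against 63.2 and 52.2 with G-CSF. *Tbxas1*, thromboxane synthase, stood at 55 and 57.8 FPKM in Control and at 51.7 and 48 FPKM with G-CSF (log2 fold change -0.18, adjusted p = 0.0654), and its ratio to *Ptgs1* overlapped between the groups. *Akr1c18*, an aldo-keto reductase, had the lowest log2 fold change of the list, -1.19, and did not pass (adjusted p = 0.061). It was -0.594 without G-CSF replicate 1 and -1.776 without G-CSF replicate 2, where it passed (adjusted p = 0.00816), as it did at a pseudocount of 1 FPKM (-0.682, adjusted p = 0.0463). *Fam213b*, a prostaglandin F synthase, did not pass either (-0.445, adjusted p = 0.156), with -0.137 without G-CSF replicate 1 and -0.752 without G-CSF replicate 2, where it passed (adjusted p = 0.0219).

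Of 11 receptors tested, 6 fell and 1 rose (63.6% passing, against 23.7% of all genes), with a median of -0.32. *Ltb4r1*, the high-affinity leukotriene B4 receptor, stood at 75.3 and 69.9 FPKM in Control and at 61.8 and 59.8 FPKM with G-CSF (log2 fold change -0.25, adjusted p = 0.0205), opposite in direction to *Lta4h*. The prostaglandin E2 receptors *Ptger4* (-0.49, adjusted p = 0.0112) and *Ptger1* (-0.21, adjusted p = 0.0459) and the prostacyclin receptor *Ptgir* (-0.38, adjusted p = 0.00711) fell, and so did *Fpr2*, the lipoxin and formyl peptide receptor and the highest of the list (-0.66, adjusted p = 0.00905), and *Cmklr1*, a chemerin and resolvin receptor (-0.43, adjusted p = 0.0317). The level of *Fpr2* is uncertain, since 20.9% of its windows are shared with close relatives, and that of *Ptger1* is uncertain because strand use in the counting is not given. *Ptger2* (log2 fold change -0.27, adjusted p = 0.171) and *Cysltr1*, the cysteinyl leukotriene receptor (-0.32, adjusted p = 0.0781), did not pass, although *Cysltr1* did with limma voom (adjusted p = 0.0433). *Pparg*, a nuclear receptor that binds prostaglandin J2, rose (0.23, adjusted p = 0.0302).

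Of these 18 pathway genes that passed, 9 passed whichever library was left out: *Anxa1*, *Lpcat2*, *Mgll*, *Cyp4f18*, *Ggt1*, *Ptges3*, *Fpr2*, *Ptger4* and *Ptgir*. *Cotl1*, *Cyp4f16* and *Pparg* passed in none of the 4 fits that leave out a library, with adjusted p of 0.0805 to 0.161, 0.0529 to 0.116 and 0.0565 to 0.123. *Ptger1* passed without G-CSF replicate 2 and had an adjusted p of 0.11 to 0.185 otherwise, and *Ephx1* passed without G-CSF replicate 1 and had 0.0587 to 0.118 otherwise. *Cmklr1* (without Control replicate 2 or G-CSF replicate 1, 0.0904 and 0.0672), *Mgst2* (the same libraries, 0.0669 and 0.056), *Ltb4r1* (without Control replicate 1 or G-CSF replicate 2, 0.0873 and 0.0655) and *Dpep2* (without Control replicate 1, 0.0551) lost the call in the fits named. Annotated genes on the opposite strand overlap *Anxa1*, *Lpcat2*, *Mgll*, *Cyp4f18*, *Dpep2*, *Ptger4*, *Cmklr1* and *Pparg*, and 10.1% of the windows of *Cyp4f16* are shared with relatives, so their levels are uncertain in the same way.

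**Figure D5:**
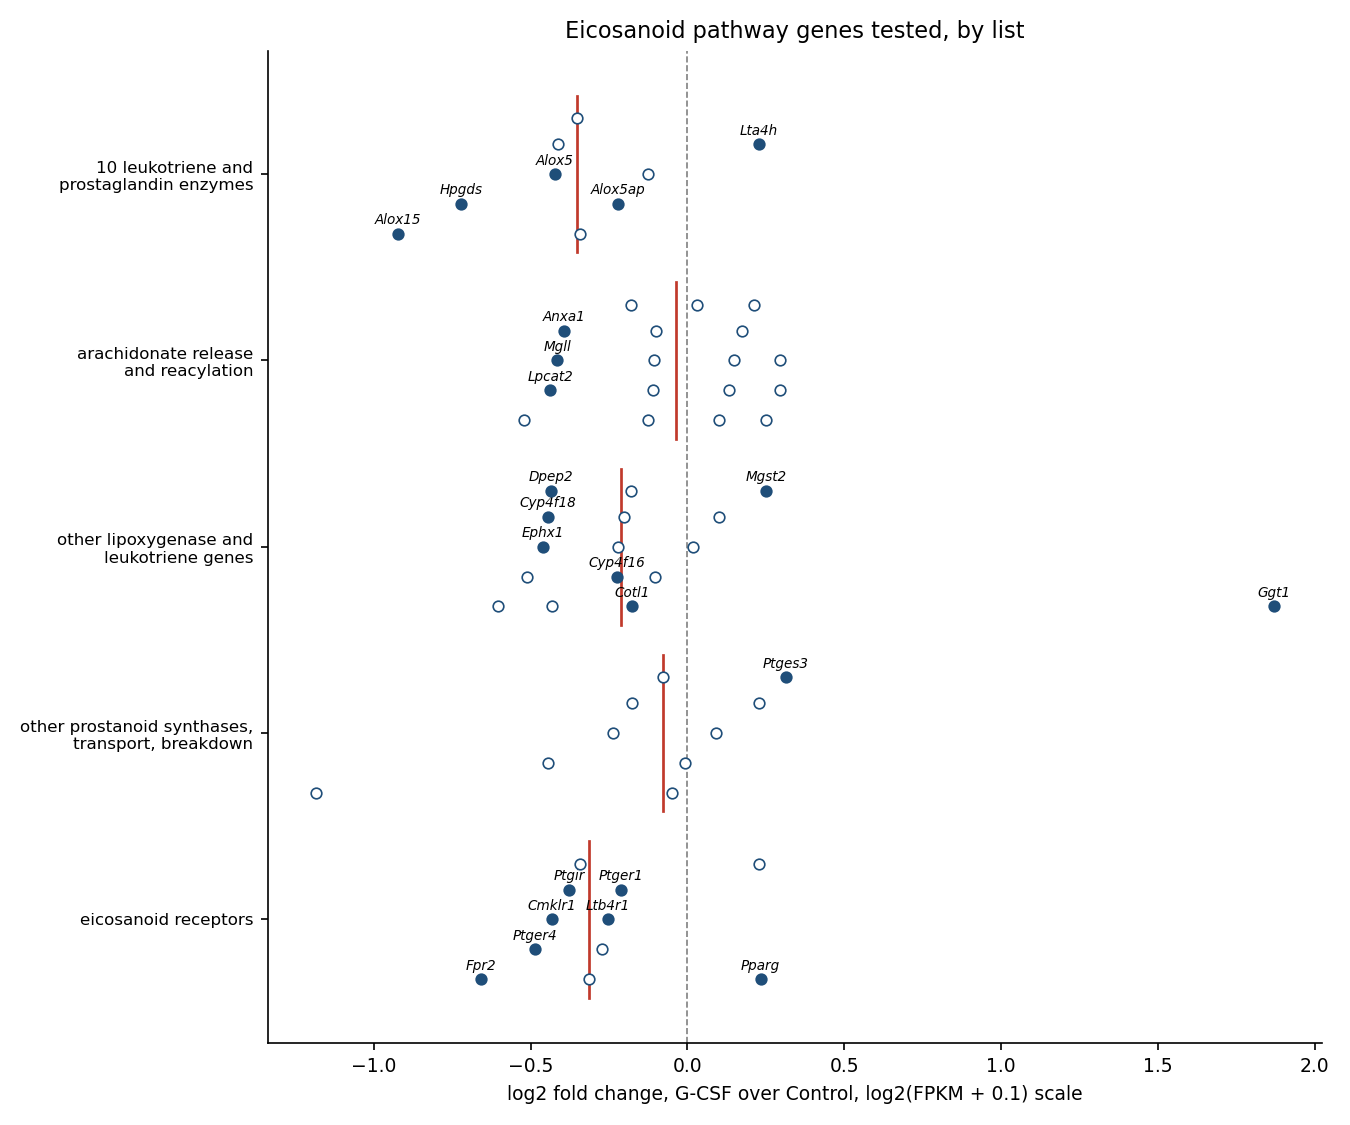
Log2 fold change of G-CSF over Control (log2(FPKM + 0.1) scale) of the tested genes of the 10 enzymes and of the 4 further pathway lists, 1 point per gene, with the names of genes with an adjusted p under 0.05 (filled) and a red line at the median of each list. *Akr1b3* is left out because 2 libraries list it at 0. Receptors and members lie mostly below 0, and *Ggt1* lies far to the right.

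For each enzyme gene that changed, the 2 genes closest in pattern were found by the root-mean-square distance between centred log2 values over the 4 libraries. They were *Ap5s1* (0.00789) and *Cd300lb* (0.00981) for *Alox5*, *Egln2* (0.00306) and *Man2b1* (0.00408) for *Alox5ap*, and *Slirp* (0.00489) and *Bcs1l* (0.0059) for *Lta4h*. For *Alox15* they were *St6galnac3* (0.061) and *Cd40* (0.0616), and for *Hpgds* *Gal3st4* (0.0188) and *Capns2* (0.0243). *St6galnac3* stood at only 0.162 and 0.172 FPKM in Control and at 0.066 and 0.035 FPKM with G-CSF. These levels are near the 0.1 FPKM added before the log, which shapes its pattern. With limma neither *St6galnac3* (adjusted p = 0.135) nor *Bcs1l* (0.123) passed. *Capns2* overlaps the far higher *Lpcat2* on the same strand, so its level is uncertain. With 4 libraries in 2 groups, many genes lie close to any gene.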

How the data were processed

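RNA-seq of 2 Control and 2 G-CSF libraries was analysed, and groups and replicate numbers came from the labels. The authors deposited 1 value per gene, taken as FPKM because low values, multiplied by transcript length, gave whole reads. At the fitted depths, 66.8% of 1913 low values lay within 0.05 read of a whole number. The depths and the length offset were chosen to make this share highest, so it is not a separate check. The submitters' processing notes name TopHat2 2.0.13, Bowtie2 2.2.3, SAMtools 0.1.19, Cufflinks 2.2.1 and the build mm10, without roles or settings. Mapping, multi-read handling and strand use set these values before deposit and could not be changed.

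Reads per gene were estimated from FPKM and transcript lengths (offset 210 bases) in GENCODE of GRCm38, which named 23310 of the 24346 genes directly. The 1719 genes with no transcript, or none longer than 300 bases, were left out. The 12056 genes reaching 10 estimated reads in any 2 libraries and 15 over the 4 were fitted with limma 3.58.1 in R 4.3.3 (lmFit, eBayes with trend, two-sided, Benjamini-Hochberg adjusted) on log2(FPKM + 0.1), which understates changes of low genes. The main fit was tested on simulated data. The changes set there were larger than that of any enzyme gene tested, and only calls past a fold of 2 were counted. Smaller changes were therefore not examined. Tables and plots were made in Python 3.11.15 (pandas 2.3.3, numpy 2.4.6, scipy 1.17.1, matplotlib 3.10.9).

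The 10 genes, the pathway lists and the marker lists (mast cell and basophil, eosinophil, megakaryocyte and platelet, macrophage, dendritic cell, neutrophil, monocyte, lymphocyte, hepatocyte) were chosen with earlier results of these data known. Named were all 10 genes, each pathway gene that passed, the highest gene of each list, receptors and synthases next to a member, the defining markers, and for each member that passed the 2 genes closest in pattern. Alternatives were pseudocounts of 1 and 0.01, no filter and a stricter filter, upper-quartile and median-ratio scaling, the replicate block, leaving out each library in turn, and limma voom on estimated reads. Promoter windows came from RefSeq (GRCm38.p6).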

Additional observations from a re-analysis of the deposited data

How the results depend on the processing

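Of 108 refitted values of the 9 tested enzyme genes, 93 kept their direction and their side of an adjusted p of 0.05, 12 lost the call, 2 gained it and 1 changed sign. The sign change was *Ptgs2*, which ran from -0.97 without G-CSF replicate 2 to 0.14 without G-CSF replicate 1. *Siglecf* likewise ran from -0.023 without G-CSF replicate 1 to 0.098 without G-CSF replicate 2. With no filter on low values, which adds genes to the test, 1626 of all genes passed (main 2859), 2 of the enzyme genes did (*Alox5* and *Hpgds*), and 11 of the other pathway genes did (main 18). A pseudocount of 1 FPKM left 56 genes past a fold of 2 (main 169). With a library left out, 1489 to 1914 genes passed and 2 to 4 enzyme genes did; the lone library of a group was then assumed to vary like the others. The stricter filter, the 2 scalings, the pseudocounts of 1 and 0.01 FPKM and voom changed no call of an enzyme gene.

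Replicate numbers were not stated to mark a shared culture or day. Whether same-numbered samples shared one is not known, and their deviations had a correlation of 0.229 over 12056 genes. With the replicate block, 3956 genes passed and 6 enzyme genes did, *Ltc4s* being added (adjusted p = 0.0234). Among the other named genes it added *Akr1c18* (0.0127), *Pla2g4a* (0.0357) and *Tbxas1* (0.0411).

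With 2 libraries per group, the intervals of *Ptgs2*, *Ltc4s* and *Ptges* include 0, and *Hpgd* had too few reads for a test.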

Other observations

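*Akr1b3*, an aldose reductase with prostaglandin F synthase activity, was listed at 2.85 FPKM in Control replicate 1 and 2.52 FPKM in G-CSF replicate 1 and at 0 in both replicate 2 libraries.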
